A study of Mus musculus with 12 samples.

Results

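The genes described here are 10 immediate early genes of mouse B cells: Egr1, Egr2, Egr3, Nr4a1, Nr4a2, Nr4a3, Ier2, Ier3, Ier5 and Dusp1. They were chosen by name, and each was read from every probe set that names that gene alone, 21 of the 45037 probe sets tested. These 10 are among 18193 genes with a probe set of their own. Where a gene had several probe sets, the brightest over the 12 arrays stood for it and the others are given separately. RNA came from B220+ spleen cells of C57BL/6 mice that carry the MD4 transgene, Tg(IghelMD4)4Ccg, a B cell receptor against hen egg lysozyme (HEL). Cells of all groups were purified on magnetic beads and cultured with anti-CD40, IL21 and HEL, which stand in for help from follicular T cells and for antigen. The groups were cells labelled Jmjd2a-depleted, cells labelled Jmjd2c-depleted and control cells, each at day 1 and day 3, with 2 arrays in each of the 6 groups. Jmjd2a (Kdm4a) and Jmjd2c (Kdm4c) are histone lysine demethylases. The labels describe the depletion as siRNA in some fields and as shRNA virus in others. Replicates are given as biological, but no mouse or culture is named for each, so p-values measure only the spread between these arrays. The 2 control arrays of day 3 carry different replicate numbers in their titles but the same short name in their descriptions, so whether they come from separate samples is in doubt. Their values differed (r = 0.9887 across probe sets, against 0.9959 to 0.9978 within the other groups), and they were counted as 2 in every day 3 comparison.

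Immediate early genes are switched on within minutes of a stimulus and need no new protein for it. In B cells, antigen binding starts ERK and calcium signalling, which act on serum response factor with its Elk partners, on CREB, and on NFAT and MEF2 at these genes. Egr1, Egr2 and Egr3 are zinc finger transcription factors, and Nr4a1 (Nur77), Nr4a2 (Nurr1) and Nr4a3 (Nor1) are nuclear receptors that need no ligand. A reporter of Nr4a1 is widely used as a readout of antigen receptor signalling in lymphocytes. Ier2, Ier3 and Ier5 are small early response proteins, and Dusp1 is a nuclear phosphatase that turns MAP kinases off.

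Promoter sequences from RefSeq (GRCm38.p6) were at hand for 7 of the 10 genes, in 11 windows of 250 bases before to 50 bases after a start site. Those of the genes with the widest differences follow, 5′ to 3′ on the gene's own strand and up to the base before the start, since the results below fall into a Nr4a1, Nr4a3, Ier2 and Egr2 pattern and a Dusp1 and Ier5 pattern. Capitals mark matches to the motifs searched on both strands: the CRE TGACGTCA and its core TGACG, the CArG box of serum response factor, the Egr sites GCGGGGGCG and GCGTGGGCG, the AP-1 site TGANTCA, the NBRE AAAGGTCA of Nr4a receptors, and the TATA box TATAAA. The stretches are chr15:101266596-101266845 (+) for Nr4a1, chr4:48045092-48045121 (+) for Nr4a3, chr10:67537797-67537826 (+) for Egr2, chr17:26508473-26508722 (-) for Dusp1 and chr1:155099637-155099886 (-) for Ier5. For Egr2 only the 30 bases from its CArG box are shown, and for Nr4a3 the 30 from its second CRE core, since the gene models there begin at an earlier start site. The Nr4a1 window also lies inside its gene model.
Nr4a1: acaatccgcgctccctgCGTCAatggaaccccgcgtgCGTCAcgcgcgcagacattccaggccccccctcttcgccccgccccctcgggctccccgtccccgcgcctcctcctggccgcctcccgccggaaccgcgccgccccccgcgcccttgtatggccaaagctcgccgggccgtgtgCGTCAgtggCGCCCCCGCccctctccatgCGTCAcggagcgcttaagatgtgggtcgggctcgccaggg
Nr4a3: CGTCAcatTGACGtctcgcattccaggcac
Egr2: CCATATATGGgcagcgaCGTCAcgggtatt
Dusp1: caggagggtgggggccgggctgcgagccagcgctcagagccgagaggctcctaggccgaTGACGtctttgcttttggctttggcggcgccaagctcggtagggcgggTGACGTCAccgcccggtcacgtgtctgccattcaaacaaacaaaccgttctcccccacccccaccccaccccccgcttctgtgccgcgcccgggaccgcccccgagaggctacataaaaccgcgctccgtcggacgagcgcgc
Ier5: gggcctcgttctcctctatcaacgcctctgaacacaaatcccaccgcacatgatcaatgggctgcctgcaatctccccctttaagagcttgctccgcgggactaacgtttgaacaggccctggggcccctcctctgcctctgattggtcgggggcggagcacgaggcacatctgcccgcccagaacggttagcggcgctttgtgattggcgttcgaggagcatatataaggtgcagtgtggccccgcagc

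The CRE core TGACG, which overlaps the full CRE, was in windows of 5 of the 7 genes (Egr2, Nr4a1, Nr4a2, Nr4a3 and Dusp1), against 23% of the 27025 genes in the table. Nr4a1, Nr4a2 and Nr4a3 each had 4 copies of the core. The full CRE was in Dusp1 alone of the 7 (2.03% of all genes), with its first base at position -143 from the start site, and the CArG box in Egr2 alone (1.81%). An Egr site was in the Nr4a1 window (3.93% of all genes). The letters of the TATA box were in that of Nr4a2 (15.7%), on the opposite strand with the first base at -164. The AP-1 site and the NBRE were in 0 of the 7, against 8.97% and 1.7% of all genes. The Ier3 and Ier5 windows held none of these exact letters, so the Ier5 sequence is printed in lower case throughout. Variants of a motif, such as the tatataag near the end of the Ier5 sequence, were not searched for. A match describes letters and is not evidence of binding.

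The values were log2 probe set values with array medians between 5.2 and 5.25. All 10 genes lay above the median of probe set means, 5.22, from Ier3 at the dim end to Egr2 at the bright end. Array values carry no read depth, so their precision comes from the spread between arrays. Several features of the arrays bear on what follows. Neither targeted gene, each read from its brightest probe set alone, passed the test for a lower transcript level under its own label. Kdm4a differed from control by 0.11 at day 1 and -0.12 at day 3 on Jmjd2a arrays, and Kdm4c by 0.19 and 0.03 on Jmjd2c arrays (limma adjusted p = 0.36 to 0.91). Groups are therefore called by their labels. The arrays labelled Jmjd2a and Jmjd2c at day 3 correlated more with day 1 controls (mean r = 0.9967 and 0.9954 across probe sets, which are not independent) than with day 3 controls (0.9849 and 0.9876). Replicate 2 of the day 3 controls stood apart, with an interquartile range of 3.08 against 3.38 to 3.63 on the other arrays. The median SD between replicates was 0.148 in the day 3 controls and 0.062 to 0.082 in the other groups. All groups share 1 estimate of the spread, so standard errors of comparisons with the day 3 controls may be too small.

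Markers of other spleen cells moved with the labels. The B cell marker Ms4a1 read between 11.11 and 13.02 in the group means. Of 18 macrophage and monocyte markers, 16 and 17 were higher on the Jmjd2a and Jmjd2c arrays of day 1 than in their controls, and 12 and 10 were lower at day 3. Their mean log2 value was 7.75 to 8.19 on Jmjd2a arrays, 7.63 to 8.74 on Jmjd2c arrays and 5.36 in controls at day 1. At day 3 it was 5.94 to 6.08 on Jmjd2a arrays, 6 to 6.09 on Jmjd2c arrays and 6.97 to 7.02 in controls. NK cell markers ran the same way: 6 and 7 of 9 were higher at day 1, and 6 of 9 were lower at day 3 under each label. Of 9 measured B cell markers, 7 and 8 were higher at day 1. Over all probe sets, 4.23% and 5.32% were higher at day 1, and 7.11% and 5.04% were lower at day 3. In these bulk samples, fewer cells of a type and less RNA per cell cannot be told apart. The part of such cells in the results was not tested.

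On day 1, the arrays of both labels had far more Dusp1 and Ier5 than the controls and slightly less Egr2, while on day 3 they had more Nr4a1, Nr4a3, Ier2 and Egr2. The plot of levels on all arrays shows the 10 genes in the 6 groups. Each gene's level is a log2 value, and levels are compared only within a gene.

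**Figure D1:**
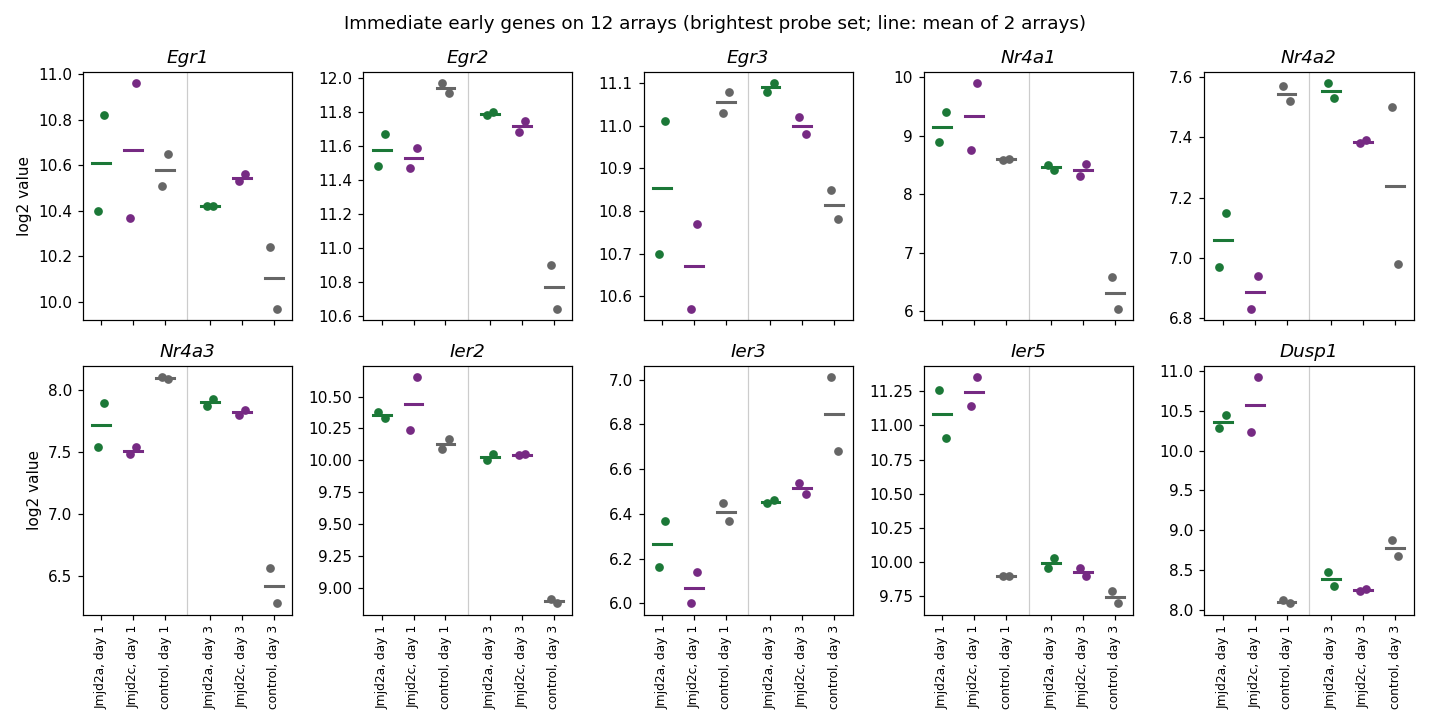
Log2 values (y axes, a separate scale for each gene) of the brightest probe set of each of the 10 genes in 6 groups (x axis), with 1 point per array and a line at the mean of 2 arrays. Dusp1 and Ier5 were highest on the Jmjd2a and Jmjd2c arrays of day 1, and Nr4a1, Nr4a3, Ier2 and Egr2 were lowest in the day 3 controls.

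Dusp1 (chromosome 17, 26505591 to 26508472) read 10.28 and 10.45 on the Jmjd2a arrays of day 1, 10.23 and 10.92 on the Jmjd2c arrays, and 8.12 and 8.08 in the controls. All 4 arrays of the labels lay far above both controls. The difference was 2.26 ± 0.17 (log2, moderated SE, n = 2 each), a 4.8-fold level, for Jmjd2a (limma adjusted p = 1.1e-05) and 2.47 ± 0.17, a 5.56-fold level, for Jmjd2c (adjusted p = 3.6e-06). At day 3 the order was the other way: Dusp1 read 8.47 and 8.3 on Jmjd2a arrays, 8.23 and 8.26 on Jmjd2c arrays, and 8.88 and 8.67 in controls. The groups did not overlap there, but the differences of -0.39 and -0.53 did not pass the test (adjusted p = 0.13 and 0.057).

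Ier5 (chromosome 1, 155096367 to 155099636), a partner of phosphatase PP2A that activates heat shock factor 1, ran with Dusp1. It read 11.26 and 10.91 on Jmjd2a arrays of day 1, 11.14 and 11.35 on Jmjd2c arrays, and 9.9 on both controls. That was 1.19 ± 0.1 (2.27-fold) higher for Jmjd2a (limma adjusted p = 3.2e-05) and 1.34 ± 0.1 (2.54-fold) higher for Jmjd2c (adjusted p = 8.2e-06). On day 3 it read 9.96 and 10.03 on Jmjd2a arrays, 9.96 and 9.9 on Jmjd2c arrays, and 9.79 and 9.7 in controls, differences of 0.25 and 0.19 that did not pass. The day 1 rises of Dusp1 and Ier5 passed under every alternative tried, leaving out each array in turn included. On the same Jmjd2a and Jmjd2c arrays 16 and 17 of 18 macrophage markers were higher than in controls. So were 7 and 8 of 9 B cell markers and 6 and 7 of 9 NK cell markers. The part of any cell type in these rises was not tested.

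Egr2 (chromosome 10, 67534469 to 67542188), which with Egr3 restrains antigen receptor responses in lymphocytes, was the brightest of the 10. On day 1 it read 11.48 and 11.67 on Jmjd2a arrays, 11.47 and 11.59 on Jmjd2c arrays, and 11.97 and 11.91 in controls. It was thus lower on all 4 arrays of the labels, by a small amount: -0.37 ± 0.08 for Jmjd2a and -0.41 ± 0.08 for Jmjd2c (limma adjusted p = 0.018 and 0.007). Without control replicate 1, control replicate 2 or Jmjd2a replicate 1 of day 1 the Jmjd2a difference was -0.34, -0.4 or -0.28 and did not pass (adjusted p = 0.16, 0.095 and 0.17). The Jmjd2a difference also did not pass without the intensity trend (-0.37, adjusted p = 0.094) or in the second probe set of Egr2 (-0.33, adjusted p = 0.15). Without control replicate 1 or Jmjd2c replicate 1 of day 1, the Jmjd2c difference was -0.39 or -0.35 and did not pass (adjusted p = 0.079 and 0.061).

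Egr3 (chromosome 14, 70077317 to 70082613) read 10.7 and 11.01 on Jmjd2a arrays of day 1, 10.57 and 10.77 on Jmjd2c arrays, and 11.03 and 11.08 in controls. Only the Jmjd2c difference, -0.38 ± 0.09, passed (limma adjusted p = 0.017), and the Jmjd2a difference of -0.2 did not (0.25). Egr1, the family member most often used as a mark of ERK activity, read 10.4 and 10.82 on Jmjd2a arrays, 10.37 and 10.96 on Jmjd2c arrays, and 10.51 and 10.65 in controls, so that both labels spanned the controls. Its differences were 0.03 (95% interval -0.33 to 0.4) and 0.09 (-0.28 to 0.46).

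Of the nuclear receptors, Nr4a2 and Nr4a3 were lower on the Jmjd2c arrays of day 1. Nr4a2 (chromosome 2, 57106830 to 57124003) read 6.97 and 7.15 on Jmjd2a arrays, 6.83 and 6.94 on Jmjd2c arrays, and 7.57 and 7.52 in controls. Nr4a3 (chromosome 4, 48045078 to 48086447) read 7.54 and 7.89 on Jmjd2a arrays, 7.48 and 7.54 on Jmjd2c arrays, and 8.1 and 8.09 in controls. The Jmjd2c differences of -0.66 ± 0.15 and -0.59 ± 0.13 passed (limma adjusted p = 0.013 and 0.011). The Jmjd2a differences of -0.49 and -0.38 did not (adjusted p = 0.067 and 0.1), although neither gene's groups overlapped. Nr4a1 (chromosome 15, 101253902 to 101274795) went the other way without passing: 8.9 and 9.41 on Jmjd2a arrays, 8.76 and 9.9 on Jmjd2c arrays, and 8.59 and 8.61 in controls.

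Nr4a1 was highest on replicate 2 of each label. Those arrays also had the highest mean of 9 neutrophil markers, 6.72 for Jmjd2a and 7.26 for Jmjd2c. It was 5.06 and 5.13 on their replicate 1 and 4.45 and 4.54 in controls, and 0 of the 9 passed against control at day 1. Macrophage and monocyte markers had the same order, at 7.75 and 8.19 on Jmjd2a replicates 1 and 2, and 7.63 and 8.74 for Jmjd2c. NK cell markers had the other order, at 6.48 and 6.05 for Jmjd2a and 6.51 and 6.44 for Jmjd2c. Nr4a1 differed from control by 0.55 for Jmjd2a (95% interval -0.09 to 1.19) and 0.73 for Jmjd2c (0.09 to 1.36), with limma adjusted p = 0.35 and 0.16. Without Jmjd2c replicate 1 of day 1, the Jmjd2c difference was 1.29 and passed (adjusted p = 0.0057). The part of neutrophils or other cell types in these values was not tested.

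Calls that rest on few arrays were common among the small falls of day 1. For Jmjd2c, Egr3 did not pass without control replicate 1, control replicate 2 or Jmjd2c replicate 1 of day 1 (-0.41, -0.36 and -0.29, limma adjusted p = 0.088, 0.14 and 0.15), nor without the intensity trend (-0.38, adjusted p = 0.071) or in its second probe set (-0.14, adjusted p = 0.6). Nr4a2 did not pass without the same arrays (-0.64, -0.68 and -0.6, adjusted p = 0.1, 0.08 and 0.083). Nr4a3 did not pass without any array of the comparison in turn: the values were -0.58 and -0.59 without control replicates 1 and 2, and -0.55 and -0.62 without Jmjd2c replicates 1 and 2 (adjusted p = 0.09, 0.083, 0.069 and 0.053). Each of the values given for these 3 genes was negative, but the second probe set of Nr4a3 gave 0.05. The further probe sets of Nr4a2 and Nr4a3, described with the other probe sets, did not pass for Jmjd2c at day 1.

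Ier2 (chromosome 8, 84661331 to 84662852), a nuclear regulator of transcription, read 10.38 and 10.33 on Jmjd2a arrays of day 1, 10.24 and 10.65 on Jmjd2c arrays, and 10.09 and 10.17 in controls. The differences of 0.23 and 0.32 did not pass (limma adjusted p = 0.27 and 0.076). For Ier2 the Jmjd2c difference was 0.53 and passed without Jmjd2c replicate 1 of day 1 (adjusted p = 0.0018), and it passed at 0.32 without either control of day 3 (0.043 each) or with array weights (0.02). Ier3 (chromosome 17, 35821713 to 35822911), a modulator of cell survival and ERK signalling, read 6.16 and 6.37 on Jmjd2a arrays, 6 and 6.14 on Jmjd2c arrays, and 6.45 and 6.37 in controls, and did not pass either (-0.14 and -0.34, adjusted p = 0.66 and 0.14).

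Counted together at day 1, 2 of the 10 genes were higher and 1 was lower on Jmjd2a arrays, where 4.23% and 3.25% of all probe sets were called higher and lower. On Jmjd2c arrays 2 were higher and 4 were lower, against 5.32% and 5.69% of all probe sets. With 2 arrays a group, ranges that do not overlap are common: at day 1 they lay apart, higher and lower, for 20.2% and 32.9% of all probe sets for Jmjd2a and for 21.5% and 32.4% for Jmjd2c. Among probe sets above the median level, where all 10 genes lie, the shares called higher and lower by the test were 7.22% and 6.2% for Jmjd2a and 9.01% and 10.6% for Jmjd2c. The median difference of the 10 genes was -0.05 for Jmjd2a and -0.12 for Jmjd2c, beside -0.04 and -0.03 over all probe sets. More genes passed for each label when either control array of day 3, which enters the shared spread, was left out.

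**Figure D2:**
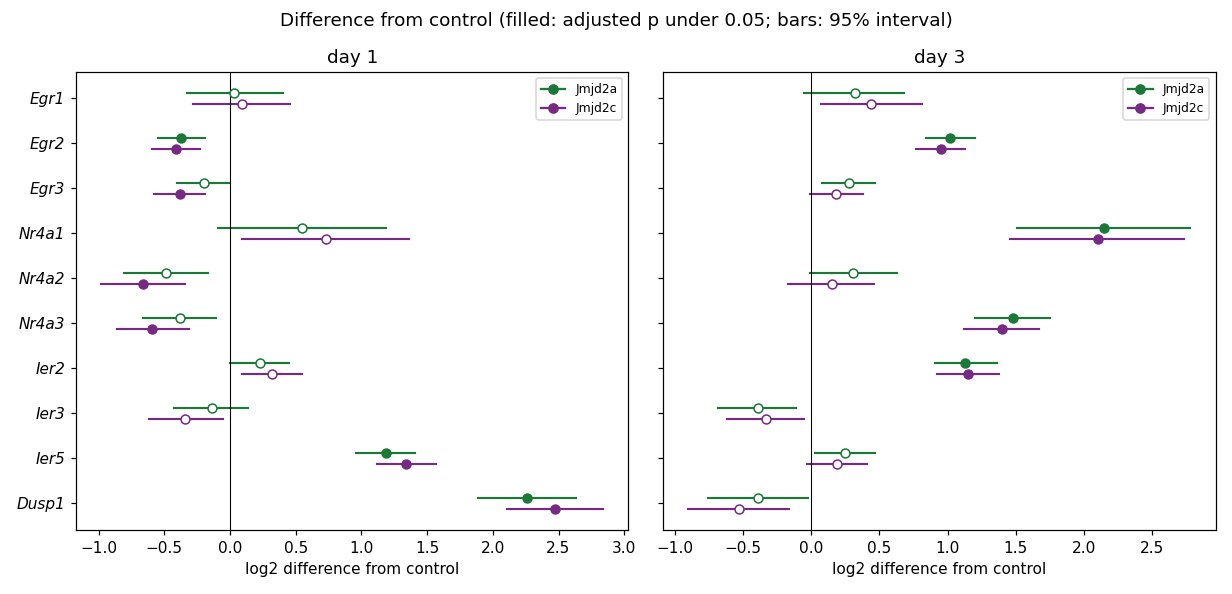
Log2 difference from the control of the same day (x axis) for the 10 genes (y axis) on Jmjd2a and Jmjd2c arrays, at day 1 on the left and day 3 on the right. Points are estimates from the model, bars 95% intervals, and filled points passed an adjusted p of 0.05. Dusp1 and Ier5 lie far right at day 1, and Nr4a1, Nr4a3, Ier2 and Egr2 at day 3.

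At day 3, the arrays of both labels carried more Nr4a1, Nr4a3, Ier2 and Egr2 than the controls. Nr4a1 read 8.5 and 8.42 on Jmjd2a arrays, 8.32 and 8.51 on Jmjd2c arrays, and 6.59 and 6.04 in controls. Every array of the labels was well above both controls. The differences were 2.15 ± 0.29, or 4.43-fold, for Jmjd2a and 2.1 ± 0.29, or 4.28-fold, for Jmjd2c (limma adjusted p = 3e-04 and 0.00041). Nr4a3 read 7.87 and 7.93 on Jmjd2a arrays, 7.8 and 7.84 on Jmjd2c arrays, and 6.56 and 6.28 in controls. It was 1.48 ± 0.13 higher (2.79-fold) for Jmjd2a and 1.4 ± 0.13 higher (2.63-fold) for Jmjd2c (adjusted p = 1.2e-05 and 2.1e-05).

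Ier2 read 10 and 10.05 on Jmjd2a arrays of day 3, 10.04 and 10.05 on Jmjd2c arrays, and 8.91 and 8.88 in controls. The spread within each group was small beside the differences of 1.13 ± 0.1 (2.19-fold) and 1.15 ± 0.1 (2.22-fold), with limma adjusted p = 2e-05 and 2.1e-05. Egr2 read 11.78 and 11.8 on Jmjd2a arrays, 11.68 and 11.75 on Jmjd2c arrays, and 10.9 and 10.64 in controls, and was 1.02 ± 0.08 (2.03-fold) and 0.95 ± 0.08 (1.93-fold) higher (adjusted p = 8.2e-06 and 1.7e-05). In Egr2 the direction was thus the opposite of that on day 1. Without day 3 control replicate 2, which read lower than replicate 1 in all 4 genes, the Jmjd2a differences were 1.87 for Nr4a1, 1.34 for Nr4a3, 1.12 for Ier2 and 0.89 for Egr2. The Jmjd2c differences were then 1.82 for Nr4a1, 1.25 for Nr4a3, 1.14 for Ier2 and 0.82 for Egr2, and all 8 passed.

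The other 6 genes did not pass at day 3. Egr1 read 10.42 on both Jmjd2a arrays, 10.53 and 10.56 on Jmjd2c arrays, and 10.24 and 9.97 in controls (differences 0.32 and 0.44, limma adjusted p = 0.21 and 0.12). Egr3 read 11.08 and 11.1 on Jmjd2a arrays, 11.02 and 10.98 on Jmjd2c arrays, and 10.85 and 10.78 in controls, and its Jmjd2a difference of 0.28 lay at the threshold (adjusted p = 0.05 as rounded, not passed). Both genes were higher on the arrays of each label than on either control. Nr4a2 read 7.58 and 7.53 on Jmjd2a arrays, 7.38 and 7.39 on Jmjd2c arrays, and 7.5 and 6.98 in controls, which span the Jmjd2c arrays. Its differences were 0.31 and 0.15 (adjusted p = 0.15 and 0.61). Ier3 read 6.45 and 6.46 on Jmjd2a arrays, 6.54 and 6.49 on Jmjd2c arrays, and 7.01 and 6.68 in controls, the reverse order (-0.39 and -0.33, adjusted p = 0.051 and 0.12).

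At day 3 the count was thus 4 of 10 higher and 0 lower for each label, where 13.7% of all probe sets were called higher and 7.11% lower for Jmjd2a, and 9.28% and 5.04% for Jmjd2c. Above the median level the shares called higher were 25.6% and 17.8%, and those called lower 9.6% and 8.5%. Ranges lay apart, higher and lower, for 26.7% and 29.7% of all probe sets for Jmjd2a and for 24.6% and 22.7% for Jmjd2c. The median difference of the 10 genes was 0.31 for both labels, beside -0.04 and -0.01 over all probe sets. The same 2 control arrays stand behind both comparisons, so the labels are not independent of each other. With array weights, calls over all probe sets went from 9351 to 5711 for Jmjd2a and from 6452 to 4114 for Jmjd2c. Then too, 4 of the 10 genes were higher and 0 lower under each label. With quantile normalization, 4 were higher and 2 lower under each label. The lower genes were Ier3 (-0.52 and -0.39, limma adjusted p = 0.0055 and 0.03) and Dusp1 (-0.53 and -0.6, adjusted p = 0.04 and 0.027). Without day 3 control replicate 2 the 4 genes passed for either label, with 1 lower gene besides for Jmjd2a and 2 for Jmjd2c. Without day 3 control replicate 1, 6 genes were higher and 0 lower for each label. Nr4a2 was then higher by 0.57 for Jmjd2a and 0.41 for Jmjd2c (limma adjusted p = 0.00091 and 0.011), while without replicate 2 its differences were 0.05 and -0.11. Of 10 measured heat shock genes, 9 and 8 were higher on the same Jmjd2a and Jmjd2c arrays, with Hspa1b, an inducible Hsp70, at a mean of 9 on Jmjd2a arrays, 8.73 on Jmjd2c arrays and 5.63 in controls. At day 1, 2 of the 10 heat shock genes were higher under each label, and 1 was lower for Jmjd2a and 4 for Jmjd2c. Hspa1b averaged 10.23 on Jmjd2a arrays, 10.33 on Jmjd2c arrays and 6.08 in controls on that day, when Egr2 was lower under both labels. The part of a heat shock response in the results of either day was not tested.

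Between the days, 4 of the 10 genes fell and 2 rose in the controls. Nr4a1 fell by 2.29 ± 0.29 on the log2 scale, to a 4.88-fold lower level, Nr4a3 fell by 1.67 ± 0.13, Ier2 fell by 1.23 ± 0.1 and Egr2 fell by 1.18 ± 0.08 (limma adjusted p = 0.00012, 2.5e-06, 5.9e-06 and 1.4e-06). These differences rest on the same day 3 controls as those of 2.15, 1.48, 1.13 and 1.02 for Jmjd2a given above, so the values are not independent. Dusp1 and Ier3 rose in controls, by 0.67 ± 0.17 and 0.44 ± 0.13 (adjusted p = 0.012 and 0.028), while Egr1, Egr3, Nr4a2 and Ier5 did not pass (-0.47, -0.24, -0.31 and -0.16). With the replicate number as a block, Egr1 passed (-0.47, adjusted p = 0.047). Over all probe sets 15.4% were lower and 8.46% higher, and above the median level 28.4% and 11.8%.

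The 2 rises in controls were the less stable calls. Ier3 did not pass without control replicate 1 or 2 of day 1 or control replicate 1 of day 3 (0.48, 0.4 and 0.28, limma adjusted p = 0.095, 0.15 and 0.087). Dusp1 did not pass without control replicate 1 or 2 of day 1 (0.69 and 0.66, adjusted p = 0.065 and 0.07). Macrophage markers rose in the controls over the same days, 14 of 18 past the test, as did 6 of 9 NK cell markers. The part of such cells in the 2 rises was not tested.

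On the arrays of the labels, Dusp1 and Ier5 fell between the days. On Jmjd2a arrays Dusp1 fell by 1.98 ± 0.17 and Ier5 fell by 1.09 ± 0.1 on the log2 scale, and on Jmjd2c arrays the differences were -2.33 ± 0.17 and -1.31 ± 0.1 (limma adjusted p = 3.7e-05, 7.2e-05, 7.6e-06 and 1.1e-05). On Jmjd2c arrays Ier2 was also lower at day 3 (-0.4 ± 0.1, adjusted p = 0.035) and Egr3 higher (0.33 ± 0.09, adjusted p = 0.042). Neither of these held when single arrays were left out: Ier2 ranged from -0.61 to -0.19 and Egr3 from 0.23 to 0.43, with adjusted p up to 0.23 and 0.28. Both lost the call without either control of day 1 and without either Jmjd2a or Jmjd2c array of day 3. Ier2 also lost it without Jmjd2c replicate 2 of day 1 (-0.19), and Egr3 without Jmjd2c replicate 1 of day 1 (0.23). In all, 2 of 10 genes were lower and 0 higher for Jmjd2a, against 3.35% and 2.26% of all probe sets. For Jmjd2c 3 were lower and 1 higher, against 5.36% and 3.27%. Above the median level these shares were 5.66% and 4.25% for Jmjd2a, and 9.31% and 5.87% for Jmjd2c.

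**Figure D3:**
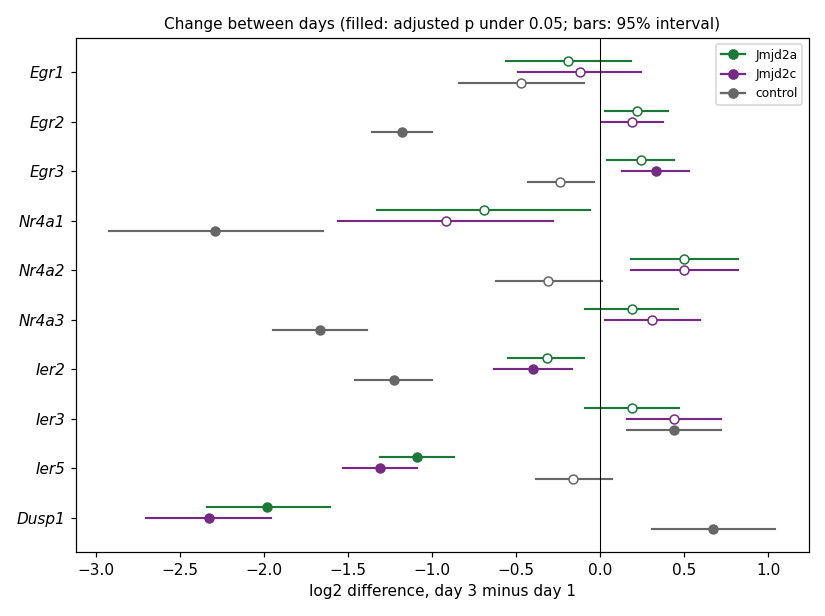
Log2 difference between day 3 and day 1 (x axis) for the 10 genes (y axis), on Jmjd2a, Jmjd2c and control arrays. Points are estimates from the model, bars 95% intervals, and filled points passed an adjusted p of 0.05. Controls fell in Nr4a1, Nr4a3, Ier2 and Egr2, while the arrays of the labels fell in Dusp1 and Ier5.

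The test of whether the difference from control itself changed between the days passed for 8 of the 10 genes under both labels. It was positive, that is higher at day 3, for Nr4a3 (1.86 for Jmjd2a and 1.98 for Jmjd2c), Nr4a1 (1.6 and 1.37), Egr2 (1.39 and 1.36), Ier2 (0.91 and 0.83), Nr4a2 (0.8 and 0.81) and Egr3 (0.48 and 0.57). It was negative for Dusp1 (-2.65 and -3.01) and Ier5 (-0.93 and -1.16), though not in the dimmest Ier5 probe set (0.13 and 0.2, not passed). The second brightest probe sets of Nr4a3 (0.18 and -0.02), Nr4a2 (-0.02 and 0.03) and Egr3 (0.14 and 0.21) did not pass either. Egr1 and Ier3 did not pass, at 0.28 and 0.35, and at -0.25 and 0. Limma adjusted p of the 16 passes ran up to 0.039, and the background was 12% of all probe sets positive and 6.36% negative for Jmjd2a, and 10.7% and 6.84% for Jmjd2c. Above the median level it was 22.3% and 10.1% for Jmjd2a, and 20% and 11.3% for Jmjd2c.

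Some of these passes were lost when 1 array was left out. For Jmjd2a, Egr3, Nr4a1 and Nr4a2 did not pass without either control of day 1, Jmjd2a replicate 1 of day 1 or either Jmjd2a array of day 3, with values of 0.32 to 0.5, 1.34 to 1.64 and 0.71 to 0.83. For Jmjd2c, Nr4a1 did not pass without any of 8 arrays, among them Jmjd2c replicate 1 of day 1 (0.8, limma adjusted p = 0.1) and day 3 control replicate 2 (1.09, adjusted p = 0.094). Nr4a2 under Jmjd2c did not pass without either control of day 1, Jmjd2c replicate 1 of day 1 or either Jmjd2c array of day 3 (0.75 to 0.83). Nr4a3, Egr2, Ier2, Dusp1 and Ier5 passed without each array in turn under both labels.

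Between the labels themselves no gene differed past the test. Jmjd2a minus Jmjd2c ranged from -0.21 to 0.2 at day 1 and from -0.12 to 0.17 at day 3 over the 10 genes, and limma called 0 of them and 0 of the 45037 probe sets on either day. At an unadjusted p of 0.05, 0 of the 10 genes passed on either day, and 2.4% of probe sets did at day 1 and 5.71% at day 3. At day 1 the replicate differences of the labels correlated (r = 0.392 across probe sets). The test did not pair them, so its counts of 0 on that day may miss differences. The 95% interval of the Dusp1 difference was -0.58 to 0.16 at day 1, and that of Nr4a1 was -0.59 to 0.69 at day 3, so differences of such sizes remain possible.

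In the order of levels over the 6 groups, Dusp1, Ier5, Ier2, Nr4a1 and Egr1 were highest on the Jmjd2c arrays of day 1, followed by the Jmjd2a arrays of day 1, and the ranges of these neighbours overlapped. Egr2 and Nr4a3 were highest in the day 1 controls, Egr3 and Nr4a2 on the Jmjd2a arrays of day 3, and Ier3 in the day 3 controls. The day 3 controls had the lowest level of Egr1, Egr2, Nr4a1, Nr4a3, Ier2 and Ier5, and only for these 6 of the 10 genes. The gap up to the next group was 2.1 for Nr4a1, 1.13 for Ier2, 1.09 for Nr4a3, 0.76 for Egr2, 0.32 for Egr1 and 0.16 for Ier5. For Dusp1 the lowest group was the day 1 control, 0.14 below the Jmjd2c arrays of day 3.

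Because the day 3 arrays of both labels had a higher r with controls of day 1 than with those of day 3, the 10 genes were also set against those controls, a comparison chosen after the correlation was seen. On Jmjd2a arrays of day 3 the differences from day 1 controls ran from -0.19 (Nr4a3) to 0.29 (Dusp1), and on Jmjd2c arrays from -0.28 (Nr4a3) to 0.14 (Dusp1). Limma called 0 of the 10 genes in either, and 75 (0.167%) and 72 (0.16%) of all probe sets. At an unadjusted p of 0.05, 0 and 1 of the 10 genes passed, as did 2258 and 4022 of the 45037 probe sets. Nr4a1, the gene furthest from the day 3 controls, lay -0.14 and -0.19 from the day 1 controls. Whether the labels of these arrays are right was not tested.

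Probe sets of one gene did not always go the same way. Of the 21, 4 were higher and 2 lower for Jmjd2a at day 1, and 4 higher and 5 lower for Jmjd2c. At day 3, 7 and 6 were higher. The second probe set of Egr2 followed the first (r = 0.98 over the 12 arrays), with 1.02 for Jmjd2a and 0.94 for Jmjd2c at day 3. For Nr4a3 the rise at day 3 rested on its brightest probe set alone. The others had means of 5.9 and 3.42 and correlations of -0.16 and -0.52 with it, and the second differed by 0.07 and 0.03 at day 3, neither past the test. For Jmjd2c at day 1 the second gave 0.05 (limma adjusted p = 0.93), so the fall of Nr4a3 there was not seen in it. The dimmest of them is below the median level of the arrays.

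The 5 further probe sets of Nr4a2 correlated with its brightest at 0.48 to 0.93, and 1 of them was lower for Jmjd2a at day 1 (-0.58, limma adjusted p = 0.036) and higher at day 3 (0.48, adjusted p = 0.042). For Jmjd2c at day 1, where the brightest gave -0.66, none of the 5 passed (-0.37 to -0.11, adjusted p = 0.1 to 0.68), and the second brightest gave -0.26 (0.14). The second probe set of Egr3 correlated at 0.49 and did not pass against control on either day. Nor did it pass in the change in difference (0.14 for Jmjd2a and 0.21 for Jmjd2c). For Ier5 the further probe sets correlated at 0.94 and 0.87, and both were higher on the arrays of each label at day 1 (0.78 and 1 for Jmjd2a, 0.87 and 0.76 for Jmjd2c). The dimmest of the 3 also passed at day 3 (1.13 and 0.96) and fell in the controls (-1.25), which the other Ier5 probe sets did not. Its change in difference, 0.13 and 0.2, did not pass, while that of the second brightest, -0.7 and -1, did.

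**Figure D4:**
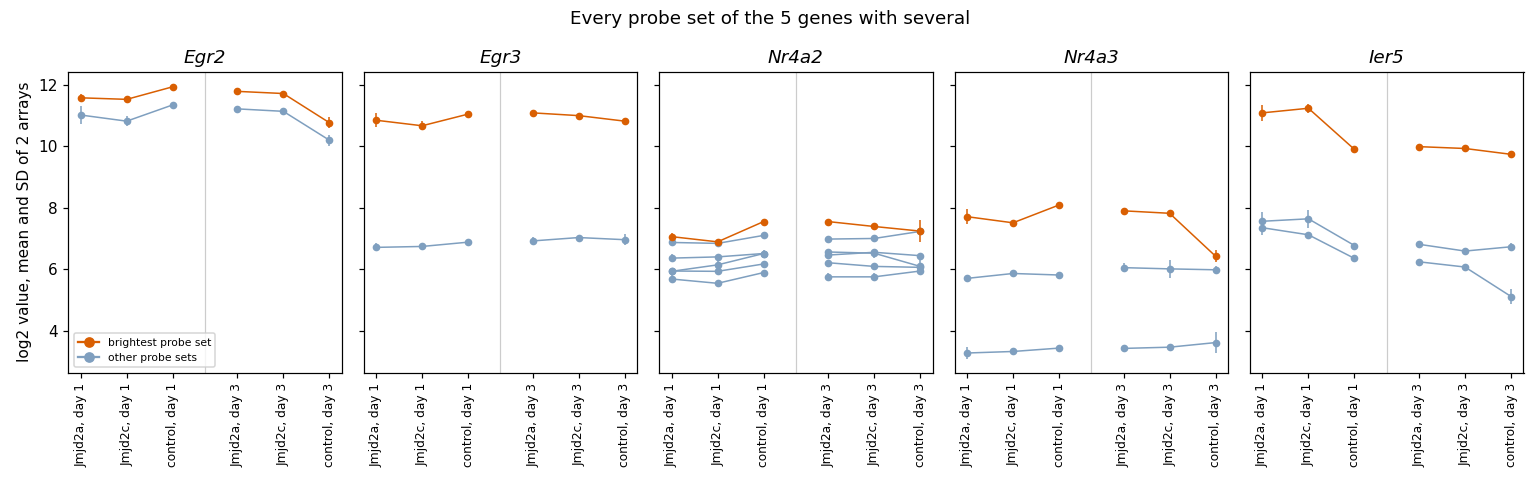
Log2 level (y axis) of every probe set of the 5 genes with more than 1, in the 6 groups (x axis), as mean and SD of 2 arrays, with the brightest in orange and the others in blue. Lines join the groups of a day only to guide the eye. The Egr2 probe sets run in parallel, while the Nr4a3 drop in day 3 controls is seen in the brightest alone.

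A list of 32 other immediate early genes holds AP-1, Klf and related genes. At day 1, 16 of them rose and 0 fell for Jmjd2a, and 19 rose and 1 fell for Jmjd2c, with medians of 0.5 for both beside -0.04 and -0.03 over all probe sets. Fos, an AP-1 subunit, averaged 11.97 on Jmjd2a arrays, 12.28 on Jmjd2c arrays and 6.63 in controls, differences of 5.35 ± 0.16 and 5.65 ± 0.16 (limma adjusted p = 4.5e-09 and 2.4e-09), and the zinc finger factors Klf4 (3.21 and 3.38) and Klf2 (3.71 and 4) and the AP-1 subunit Fosb (2.98 and 3.1) followed. At day 3, 10 of the 32 rose and 2 fell for Jmjd2a, and 8 rose and 2 fell for Jmjd2c. Myc, a growth regulator, was higher by 1.28 and 1.08, Nfkbid, a nuclear IκB protein, by 1.61 and 1.39, and Fos by 1.53 and 1.37. In controls 11 of the 32 fell between the days and 4 rose. Of all probe sets, 4.23% and 5.32% rose at day 1 for Jmjd2a and Jmjd2c, and 13.7% and 9.28% at day 3. Above the median level 7.22% and 9.01% rose at day 1, and 25.6% and 17.8% at day 3. Between the days in controls 15.4% of all probe sets fell, and 28.4% of those above the median level.

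The list of 12 Nab corepressors, which bind Egr proteins, and feedback inhibitors of ERK was mixed. Dusp6, an ERK phosphatase, was higher at day 1 (1.98 and 2.2) and at day 3 (0.86 and 0.69). Spry2, an inhibitor of receptor to ERK signalling, was lower at day 1 (-0.69 and -0.8) and at day 3 (-0.99 and -1.08). Nab2, a corepressor of Egr proteins, was lower at day 1 (-0.49 and -0.5). Spred2, an inhibitor of Raf activation, was higher at day 3 (2.34 and 2.18), where it averaged 7.32 on Jmjd2a arrays, 7.16 on Jmjd2c arrays and 4.98 in controls. In all, 3 rose and 2 fell for Jmjd2a at day 1, and 4 and 2 for Jmjd2c. At day 3, 6 rose and 1 fell for Jmjd2a, and 3 and 1 for Jmjd2c. In controls 6 of the 12 fell between the days. Above the median level, 7.22% and 9.01% of probe sets rose at day 1 for Jmjd2a and Jmjd2c, and 25.6% and 17.8% at day 3. In controls 28.4% of them fell between the days.

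Genes upstream of the 10 were read as well. Of 18 measured genes of ERK, SRF and CREB signalling, 4 and 5 rose at day 1 for Jmjd2a and Jmjd2c, led by the ERK-activated kinase Mknk2 (0.68 and 0.75), and at day 3 Mknk2 fell (-0.52 and -0.47) while 4 and 3 others rose, with the coactivator Crebbp among them (0.55 and 0.42). Of 22 measured calcium, NFAT and MEF2 genes, 2 rose and 1 fell at day 1 for Jmjd2a, and 5 and 1 for Jmjd2c. At day 3, 7 rose and 3 fell for Jmjd2a, and 6 and 4 for Jmjd2c, with median differences of 0.01 and -0.04. Rcan1, a calcineurin regulator and NFAT target, was lower at day 1 (-0.47 and -0.51) and higher at day 3 (1.09 and 0.92), and Nfatc1 was higher at day 3 (0.74 and 0.65). Rcan1 thus had the signs of Egr2 on both days. Above the median level, 7.22% and 9.01% of probe sets rose at day 1 for Jmjd2a and Jmjd2c, and 25.6% and 17.8% at day 3. The day 3 rises of the ERK, SRF and CREB list were thus close to the share of all probe sets above that level. Of probe sets above it, 6.2% and 10.6% fell at day 1 for Jmjd2a and Jmjd2c, and 9.6% and 8.5% at day 3.

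Of 16 genes that restrain antigen receptor signalling, 4 rose at day 1 for Jmjd2a and 7 for Jmjd2c, among them the inhibitory receptor Cd22 (0.64 and 0.79) and the diacylglycerol kinase Dgka (1.25 and 1.34). At day 3, 5 fell for Jmjd2a and 4 for Jmjd2c, such as Cd72 (-0.71 and -0.63) and the phosphatase Ptpn22 (-0.67 and -0.79), and 1 rose for each label. Above the median level, 7.22% and 9.01% of probe sets rose at day 1 for Jmjd2a and Jmjd2c, and 9.6% and 8.5% fell at day 3.

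Across the 12 arrays the 10 genes fell into a few patterns, described here by Pearson's r with no test, since the arrays share groups. Egr2 and Nr4a3 correlated at 0.99, Nr4a1 and Ier2 at 0.98, Ier5 and Dusp1 at 0.94, and Egr3 and Nr4a2 at 0.87. Ier3 ran against Ier2 at -0.85, and Dusp1 against Nr4a2 at -0.81. Among 11174 genes above the median level, the gene most like each was Zfp870 for Egr1 (0.951), Gpn2 for Egr2 (0.994), Tubb2a for Egr3 (0.972), Dph5 for Nr4a1 (0.99), Slc35g1 for Nr4a2 (0.983) and Tiparp for Nr4a3 (0.997). It was Myc for Ier2 (0.987), Zfp931 for Ier3 (0.975), Crip1 for Ier5 (0.997) and Akap2 for Dusp1 (0.995). Cr2, the complement receptor of mature B cells, was as close to Dusp1 (0.995).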

How the data were processed

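RNA of 12 samples was hybridised to Affymetrix arrays (biotin-labelled cRNA from TRIzol-extracted total RNA, per the labels' protocols). The authors deposited log2 values per probe set for all 12 arrays. How those values were normalized is not stated in the labels, so no step of it could be checked. Control probe sets (64 of 45101) were left out and the values used as deposited.

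Probe sets were named from the platform annotation, in which 34945 name 1 gene, 932 several and 9160 none. Gene positions and promoter sequences are those of RefSeq on GRCm38.p6, and promoters were matched by symbol. In limma 3.58.1 (R 4.3.3), 6 group means were estimated for each of the 45037 probe sets with an intensity trend of the prior variance, leaving 6 residual degrees of freedom and a prior of 5.85. The Benjamini-Hochberg adjustment ran over every probe set in each of the 11 comparisons, and an adjusted p under 0.05 passed. Fold levels are powers of the log2 difference, and errors are moderated standard errors. The fit was tested on simulated data.

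The 10 genes, the 14 other lists and the tests were chosen with earlier results of these data known. Named were all 10 genes, of each pathway list up to 4 members of smallest p, and the genes of highest r with each gene. As a check of pairing by replicate number, the differences between replicates were correlated over 15 pairs of groups. These r ran from -0.111 to 0.392, with 1 over 0.1, and no pairing was used. The pair over 0.1 was that of the Jmjd2a and Jmjd2c arrays of day 1. The test between these groups was unpaired, so a shared replicate difference stayed in its error. Alternatives were quantile normalization, centring of arrays, leaving out dim probe sets, no trend, array weights, 1 probe set per gene, the second brightest probe set, arrays of the same day only, the replicate block, and leaving out each array in turn. Figures were drawn with matplotlib 3.10.9.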

Additional observations from a re-analysis of the deposited data

Results flagged for a closer look

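For 8 of the 10 genes the difference from control on day 3 was not that on day 1, by limma's test of this change. This held for both labels in the brightest probe set of each gene. It did not pass in the dimmest of Ier5 (0.13 and 0.2) or the second of Egr3 (0.14 and 0.21). Neither further probe set of Nr4a3 passed (0.18 and -0.04 for Jmjd2a, -0.02 and -0.05 for Jmjd2c). The second brightest of Nr4a2 did not pass either (-0.02 and 0.03). The change was 1.39 for Egr2, 0.48 for Egr3, 1.6 for Nr4a1, 0.8 for Nr4a2, 1.86 for Nr4a3, 0.91 for Ier2, -0.93 for Ier5 and -2.65 for Dusp1 on Jmjd2a arrays. On Jmjd2c arrays it was 1.36 for Egr2, 0.57 for Egr3, 1.37 for Nr4a1, 0.81 for Nr4a2, 1.98 for Nr4a3, 0.83 for Ier2, -1.16 for Ier5 and -3.01 for Dusp1. Both labels share the 4 control arrays. Macrophage and monocyte markers changed in the same test, 17 of 18 negative under each label. So did 9 of 9 NK cell and 7 of 9 B cell markers, also negative, and the part of these cells was not tested. Of all probe sets, 12% were positive and 6.36% negative for Jmjd2a, and 10.7% and 6.84% for Jmjd2c. Above the median level the shares were 22.3% and 10.1% for Jmjd2a, and 20% and 11.3% for Jmjd2c.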

How the results depend on the processing

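Over the 110 differences of a gene in a comparison, 2205 alternative values were computed. Of these 2019 kept their direction and their side of the threshold, 81 lost a call and 101 gained one. The count of 2019 includes 35 that changed sign with no call in either setting, and 4 called values changed sign. These 4 all came with the second brightest probe set: Nr4a3 was 0.05 for Jmjd2c at day 1, 0.17 between days in controls and -0.02 in the Jmjd2c change in difference, and Nr4a2 was -0.02 in the Jmjd2a change in difference.

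Counts of genes past the test moved by over 1.5 times in a minority of settings. For Jmjd2a at day 1 (3 genes) it was 5 with quantile normalization and 5 with array weights. For Jmjd2c at day 1 (6 genes) it was 3 with the second probe set. For Jmjd2a at day 3 (4 genes) it was 7 with arrays of the same day only. Between days it was 5 with array weights for Jmjd2a (2 genes), and for Jmjd2c (4 genes) 7 with quantile normalization, 2 without the trend and 9 with array weights. The change in difference (8 genes) gave 5 with the second probe set for each label. The cause was not tested.

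Leaving out each array in turn gave 2 to 5 genes for Jmjd2a and 2 to 8 for Jmjd2c at day 1, 4 to 6 for each at day 3, and 4 to 8 between days in controls. Between days it gave 2 to 4 for Jmjd2a and 2 to 7 for Jmjd2c, in the change in difference 5 to 8 for Jmjd2a and 6 to 9 for Jmjd2c, and between the labels 0 on both days. A lone remaining array was assumed to vary like the other groups. With the replicate number as a block no count moved by over 1.5 times, and 2 calls were gained, Egr3 for Jmjd2a at day 3 (0.28, adjusted p = 0.037) and Egr1 between days in controls (-0.47, adjusted p = 0.047). For the 1 pair of groups with a correlation under -0.1, Jmjd2a at day 3 and control at day 1, crossing the numbers in the block called 0 of the 10 genes and 76 probe sets. The number of arrays limits precision, and dim probe sets, such as the third of Nr4a3, measure little.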
